A study of Mus musculus with 4 samples.

Results

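The trefoil factors (Tff1, Tff2 and Tff3) and the gastrokines (Gkn1, Gkn2 and Gkn3) are 6 small secreted proteins of the digestive mucosa, and their transcripts were taken by name from the 34866 genes of a mouse stomach RNA-seq table. Mucosa of the gastric corpus came from Muc6 -/- mice (knockout, 2 libraries) and from Muc6 +/+ mice (wild type, 2 libraries). Muc6 encodes the mucus gel protein of gland cells, and the design text gives gastric carcinogenesis as the reason for the comparison. The sources used here give no strain, age, sex, treatment or structure of the Muc6 allele. They also do not say whether each library came from its own animal, so the p-values measure only a spread between samples that could be technical.

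Trefoil factors carry a compact disulfide-linked domain that resists digestion, are stored with mucins and stay in the mucus gel. Tff1 is the trefoil factor of surface pit cells, Tff2 (spasmolytic polypeptide) that of mucous neck cells and deeper mucous glands, and Tff3 that of intestinal goblet cells. Gastrokines are secreted proteins with a BRICHOS domain, a fold found in several proproteins. Gkn1 and Gkn2 are made by surface pit cells, and in human stomach GKN2 is found disulfide-linked to TFF1, while Gkn3 marks mucous neck cells in the mouse. Accordingly Tff1, Gkn1 and Gkn2 are called pit-type here (3 genes), Tff2 and Gkn3 gland-type (2 genes), and Tff3 intestinal-type (1 gene).

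Both families lie in compact clusters, each with pit-type and gland-type genes side by side (mm10, positions from GENCODE M21). On chromosome 17 the minus strand holds Tff3 (ENSMUSG00000024029.4, 31125306 to 31129646), Tff2 (ENSMUSG00000024028.7, 31141049 to 31144282) and Tff1 (ENSMUSG00000024032.6, 31161395 to 31165277), with 17112 bases between Tff2 and Tff1. On chromosome 6 lie Gkn1 (ENSMUSG00000030050.4, minus strand, 87345650 to 87350942), Gkn2 (ENSMUSG00000030049.5, plus strand, 87373357 to 87379497) and Gkn3 (ENSMUSG00000030048.5, minus strand, 87383256 to 87388935). Only 3758 bases separate the pit-type Gkn2 from the gland-type Gkn3.

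Promoter sequences in the RefSeq table (GRCm38.p6, the same assembly as mm10) were matched for 3 of the 6 members, the gastrokines. They are shown because these neighbours differed between the genotypes with opposite signs. Each runs from 250 bases before the RefSeq start to 30 bases after it, 5′ to 3′ on the gene's strand, at chr6:87350886-87351165 for Gkn1 (minus), chr6:87373115-87373394 for Gkn2 (plus) and chr6:87388906-87389185 for Gkn3 (minus). Capitals mark GATA-type motifs (AGATAA or TGATAA, either strand) and, in Gkn2, a TATA box (TATAAA).
Gkn1: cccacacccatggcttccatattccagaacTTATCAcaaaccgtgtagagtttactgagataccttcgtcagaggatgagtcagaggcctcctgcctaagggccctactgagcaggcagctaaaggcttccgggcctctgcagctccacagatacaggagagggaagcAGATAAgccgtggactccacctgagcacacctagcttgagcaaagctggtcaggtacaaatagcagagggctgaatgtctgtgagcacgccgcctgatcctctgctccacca
Gkn2: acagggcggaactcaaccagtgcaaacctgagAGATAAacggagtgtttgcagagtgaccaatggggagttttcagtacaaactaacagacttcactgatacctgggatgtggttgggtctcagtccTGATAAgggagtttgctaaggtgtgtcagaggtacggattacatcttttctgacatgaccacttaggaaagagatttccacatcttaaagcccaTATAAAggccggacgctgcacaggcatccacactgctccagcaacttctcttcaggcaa
Gkn3: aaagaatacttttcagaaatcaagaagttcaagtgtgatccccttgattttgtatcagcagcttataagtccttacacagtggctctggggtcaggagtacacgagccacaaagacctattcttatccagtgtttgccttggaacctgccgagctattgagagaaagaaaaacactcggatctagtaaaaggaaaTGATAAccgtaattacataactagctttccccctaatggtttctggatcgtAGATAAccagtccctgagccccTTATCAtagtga
Gkn1 and Gkn2 each held 2 GATA-type matches and Gkn3 held 3, and no marked match overlapped another. Of 32851 promoters of this length, 17.9% held at least 1 such match and 3.05% held 2 or more. TATAAA stood 29 bases before the start in Gkn2, was in neither of the other promoters, and was in 13.1% of all. A FOX-type match (TGTTTAC or TGTTTGC, either strand, 8% of all promoters) was in Gkn2 at 206 and in Gkn3 at 120 bases before the start. A KLF-type match (CCACACCC or CCCCACCC, either strand, 12.6% of all) was near the far end of the Gkn1 window. These are matches of letters and are not evidence of binding.

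Total counts were 20327745 and 21717123 in knockout libraries 1 and 2, and 27946423 and 20895793 in wild-type libraries 1 and 2. Levels are given as CPM, counts scaled to the library size with TMM factors. Muc6 had 0 and 10 counts in the knockout libraries, against 8542 and 6000 in the wild-type libraries, as the labels say. Of the pit, parietal and chief cell markers of the labelled corpus, all but Lipf had counts in all 4 libraries. Antral markers without Sst, which D cells of the corpus make too, summed to 215 CPM in knockout 1, 3.02 in knockout 2, and 0.927 and 0.78 in wild type (Sst was left out after its values were seen). The summed level of 4 Y-linked genes (Eif2s3y, Kdm5d, Uty, Ddx3y) was 1.43 and 2.43 CPM in knockout and 136 and 121 CPM in wild type. Genotype therefore cannot be told apart from Y-linked expression, or from a difference in sex, for any member.

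The gland-type members were far higher in knockout mucosa, while the pit-type members were level or lower. Tff2 averaged 9504 ± 3105 CPM in knockout and 850 ± 242 CPM in wild type (SD, n = 2 each), 11.2-fold as much. Gkn3 averaged 672 ± 83.1 CPM in knockout and 17.6 ± 11.8 CPM in wild type, 38.2-fold as much. The pit-type Gkn1 was 2.39-fold lower and Gkn2 1.68-fold lower, and Tff1 was at nearly the same mean in both genotypes. The groups did not overlap for 5 of the 6 members, 3 of them higher and 2 lower in knockout. Of the 14067 genes tested, 50.1% did not overlap either (26.3% were higher and 23.8% lower in knockout), so separation alone is common here.

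No member passed the test across all genes. By edgeR's quasi-likelihood test with Benjamini-Hochberg adjustment, 0 of 6 members and 0 genes of any kind (0%) had an adjusted p under 0.05, with 2236 genes (15.9%) under 0.05 before adjustment. By limma voom 0 genes (0%) passed. By DESeq2, 4 of 6 members passed (7.42% of all genes), namely Tff2, Tff3 and Gkn3 as higher (4.06% of all genes) and Gkn1 as lower (3.36%). The smallest adjusted p of any gene by edgeR was 0.104. Muc6 itself, with a log2 fold change of -10.55, did not pass by edgeR either (adjusted p = 0.178) and did by DESeq2 (adjusted p = 6.05e-06).

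**Figure D1:**
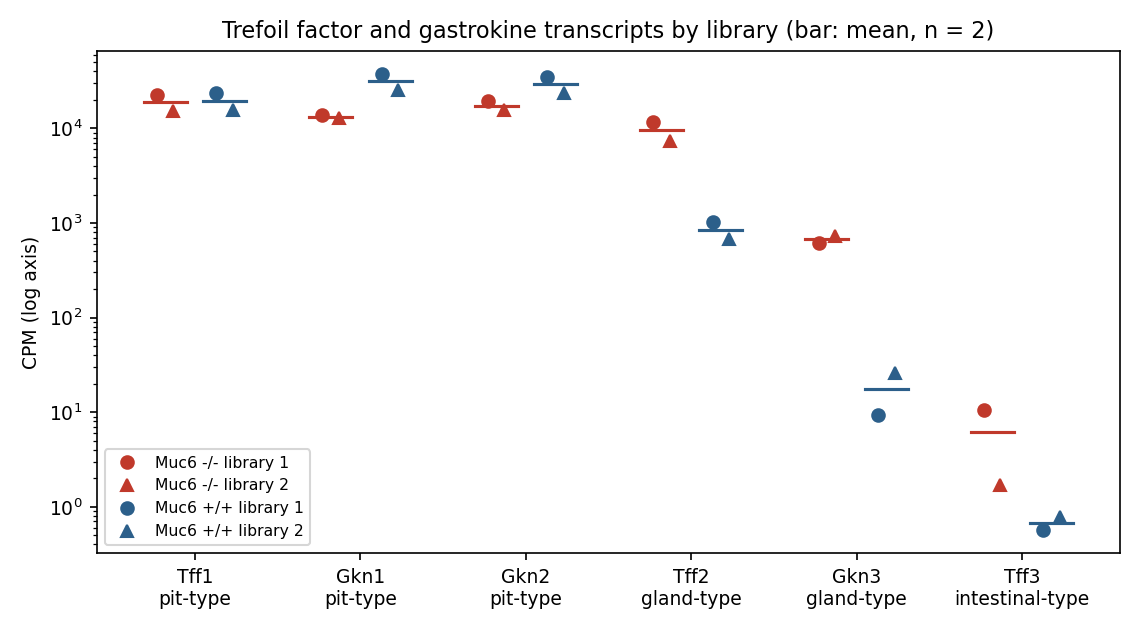
CPM of the 6 members on a log axis, with Muc6 -/- libraries in red on the left of each pair and Muc6 +/+ libraries in blue on the right, and bars at the mean of 2 libraries. Tff2 and Gkn3 stand apart between genotypes with 11.2-fold and 38.2-fold higher means in Muc6 -/-, while the points of Tff1 overlap.

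Tff1, whose peptide coats the surface epithelium and whose loss in mice gives antral tumours, was among the most abundant transcripts of every library. It was at 22786 and 15320 CPM in knockout 1 and 2, against 23712 and 15537 CPM in wild type 1 and 2. The genotypes overlapped completely, and library 1 of each was about as far above library 2 (1.49-fold in knockout, 1.53-fold in wild type). In the fit its log2 fold change came to -0.04 ± 0.45 (SE, 2 libraries per genotype, edgeR adjusted p = 0.978), and it had no stable sign, being 0.17 without knockout 2 and 0.30 without wild type 1. It took rank 1 and 5 among all genes in knockout and rank 6 and 9 in wild type.

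Gkn1, a secreted protein whose expression is often lost in human gastric cancer, was at 13841 and 12753 CPM in knockout, against 37943 and 25689 CPM in wild type. Both knockout libraries lay below both wild-type libraries, and they differed from each other by only 1.09-fold. Gkn1 was the second most abundant transcript of wild type 1, with 3.37% of its counts (exact 95% interval 3.36% to 3.37%, counting error only), and had 1.52% and 1.42% of the counts in knockout. The log2 fold change was -1.26 ± 0.41 (edgeR adjusted p = 0.284, DESeq2 adjusted p = 0.00013), and 674 genes were as low or lower.

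Gkn2, the gastrokine found linked to TFF1, was at 19317 and 15535 CPM in knockout, against 34824 and 23646 CPM in wild type. The gap between the nearest libraries of the genotypes was small, 0.29 log2 units, against 0.89 for Gkn1. Its log2 fold change was -0.75 ± 0.42 and passed neither test (edgeR adjusted p = 0.469, DESeq2 adjusted p = 0.0869).

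Tff2, the gland mucous cell trefoil factor, was at 11700 and 7309 CPM in knockout, against 1021 and 679 CPM in wild type. The lower knockout library stood 2.84 log2 units above the higher wild-type library. Tff2 took rank 6 and 10 among all genes in knockout, against 77 and 94 in wild type. The log2 fold change was 3.48 ± 0.46 (edgeR adjusted p = 0.189, DESeq2 adjusted p = 1.12e-18), a value that 125 genes of 14067, Tff2 included, reached. Without knockout 1, where antral markers were counted, it was 3.06, and without knockout 2 it was 3.74, each with only 1 knockout library left.

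Gkn3, the mucous neck cell gastrokine of the mouse, was at 613 and 730 CPM in knockout, against 9.27 and 25.9 CPM in wild type. Knockout 2 was the higher of the knockout libraries, and the libraries nearest each other across genotypes were 4.56 log2 units apart. The log2 fold change of 5.26 ± 0.65 was the largest of the 6 members (edgeR adjusted p = 0.18, DESeq2 adjusted p = 1.95e-20), and 61 genes, Gkn3 included, reached it. It was 5.32 without knockout 1 and 5.06 without knockout 2, but 4.70 without wild type 1 and 6.17 without wild type 2. Within wild type it varied 2.8-fold, the widest of the gland-type and pit-type members, on 230 and 498 counts.

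Tff3, the goblet cell trefoil factor, was near the lower end of detection, with 237 and 41 counts in knockout and 14 and 15 counts in wild type. These were 10.6 and 1.69 CPM in knockout, against 0.564 and 0.781 CPM in wild type. Knockout 1 stood 6.28-fold above knockout 2, so the mean of the group is mostly that of 1 library. The log2 fold change was 3.19 ± 1.05 (edgeR adjusted p = 0.29, DESeq2 adjusted p = 0.042). Without knockout 1 it was 1.27, and without knockout 2 it was 3.92, each with only 1 knockout library left.

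**Figure D2:**
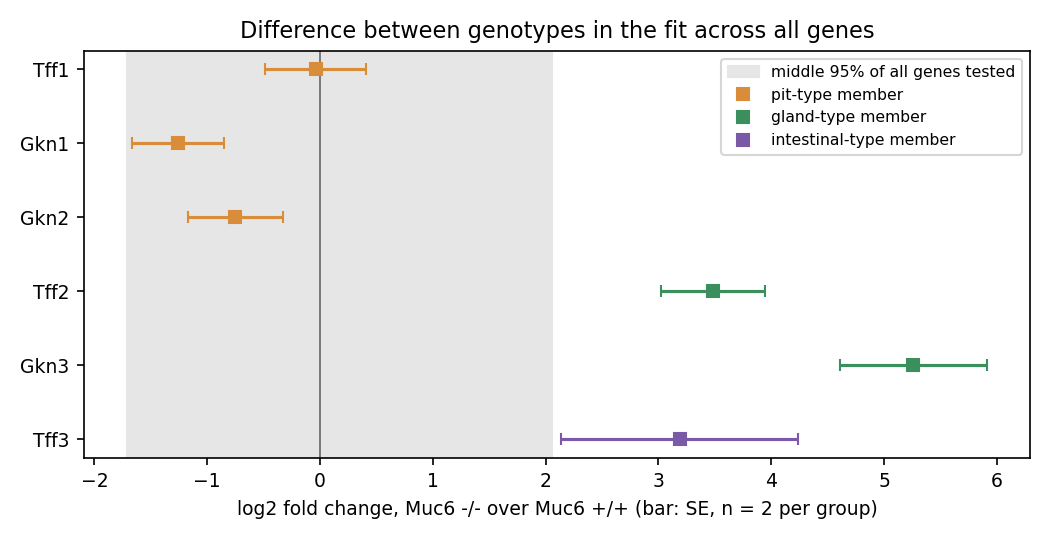
Log2 fold change of each member, Muc6 -/- over Muc6 +/+, with its SE as the bar (n = 2 per group), and the grey band from -1.71 to 2.06 holding the middle 95% of the 14067 genes tested. Tff2, Gkn3 and Tff3 lie to the right of the band and the 3 pit-type members lie inside it.

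Levels between genes were compared per kilobase of annotated exon (CPM per kb). In knockout the order was Tff1 (27103 ± 7510, SD, n = 2), Gkn2 (22114 ± 3394), Tff2 (16275 ± 5317), Gkn1 (10637 ± 615), Gkn3 (785 ± 97.1) and Tff3 (12.5 ± 12.8). Tff1 and Gkn2 overlapped, as did Gkn2 and Tff2, and the other neighbours did not. In wild type it was Gkn2 (37100 ± 10031), Tff1 (27916 ± 8222), Gkn1 (25453 ± 6932), Tff2 (1456 ± 415), Gkn3 (20.6 ± 13.8) and Tff3 (1.36 ± 0.31). There the 3 pit-type members overlapped with their neighbours and the other neighbours did not. Per kb, Tff2 thus stood above Gkn1 in knockout and below all pit-type members in wild type. The order in knockout depends on the scaling by exon length (584 bases for Tff2, 1250 for Gkn1). In CPM, Tff2 (11700 and 7309) was below Gkn1 (13841 and 12753) in both knockout libraries.

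Within a family the shares of the abundant members were close in libraries of a genotype, while those of Gkn3 in wild type and of Tff3 in knockout were not. Per exon base, Tff2 made up 38.2% and 36.5% of the trefoil factor counts in knockout, against 4.93% and 5% in wild type. Tff3 made up 0.041% and 0.01% in knockout and 0.00323% and 0.00681% in wild type. Gkn3 made up 1.97% and 2.77% of the gastrokine counts in knockout, against 0.0145% and 0.0599% in wild type. The share of Gkn1 was 30.5% and 33.2% in knockout and 40.7% and 40.6% in wild type. In sum the 6 members took 7.5% and 5.76% of all counts in knockout and 8.66% and 6.03% in wild type, and these overlapped. Trefoil factors alone took 3.79% and 2.53% in knockout and 2.2% and 1.49% in wild type, while gastrokines took 3.71% and 3.24% in knockout and 6.46% and 4.54% in wild type.

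**Figure D3:**
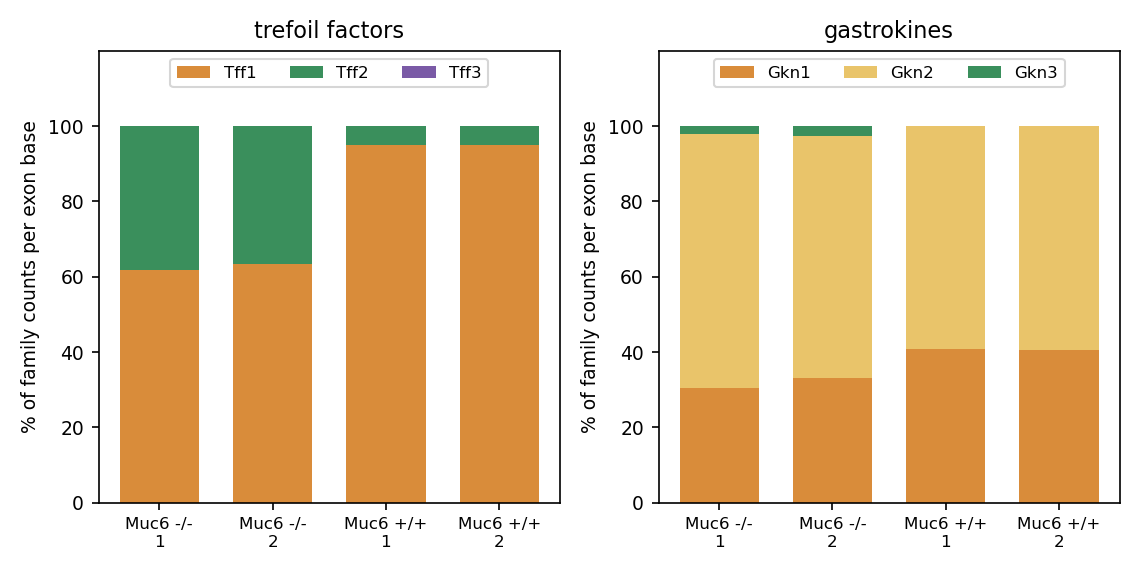
Stacked bars give each gene's percent of its family's counts per exon base in each library, trefoil factors on the left and gastrokines on the right. The Tff2 part is 38.2% and 36.5% in Muc6 -/- and 4.93% and 5% in Muc6 +/+, and the parts of Tff1, Gkn1 and Gkn2 are also close within a genotype.

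Pit-type and gland-type members were compared as ratios within a library, which do not depend on library scaling. Counts of Tff2 were 0.513 and 0.477 times those of Tff1 in knockout, against 0.0431 and 0.0437 times in wild type, a difference of 3.51 in the log2 ratio. The SD of that log2 ratio was 0.08 in knockout and 0.01 in wild type, while Tff1 and Tff2 themselves varied with an SD of 0.40 to 0.48 log2 units in either genotype. The log2 ratio of Gkn3 to Gkn1 was -4.50 and -4.13 in knockout, against -11.99 and -9.95 in wild type, and that of Gkn3 to Gkn2 was -4.98 and -4.41 against -11.86 and -9.83. Mean log2 CPM of the gland-type minus that of the pit-type members was -2.77 and -2.65 in knockout and -8.33 and -7.31 in wild type, a difference of 5.11 log2 units between genotypes. Leaving out a library in turn gave 4.60 to 5.62. Each ratio separated the genotypes without overlap (exact permutation test, two-sided p = 0.333), which is the smallest p that 2 libraries against 2 allow.

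The members of a class did not keep one proportion either. The ratios given here are of CPM not scaled by exon length, so they do not give the order of levels per kb. Gkn2 was at 1.4 and 1.22 times Gkn1 in knockout, against 0.918 and 0.92 times in wild type. Tff1 was at 1.18 and 0.986 times Gkn2 in knockout, against 0.681 and 0.657 times in wild type. Against Muc5ac, the pit cell mucin, Tff1 was at 3.95 and 3.15 times in knockout and 1.91 and 2.12 times in wild type. Gkn1 was at 2.4 and 2.62 times Muc5ac in knockout and 3.05 and 3.5 times in wild type, and Gkn2 overlapped between genotypes (3.35 and 3.19 times in knockout, 2.8 and 3.22 times in wild type). In the gland-type class, Gkn3 was at 0.0524 and 0.1 times Tff2 in knockout, against 0.00916 and 0.0383 times in wild type.

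**Figure D4:**
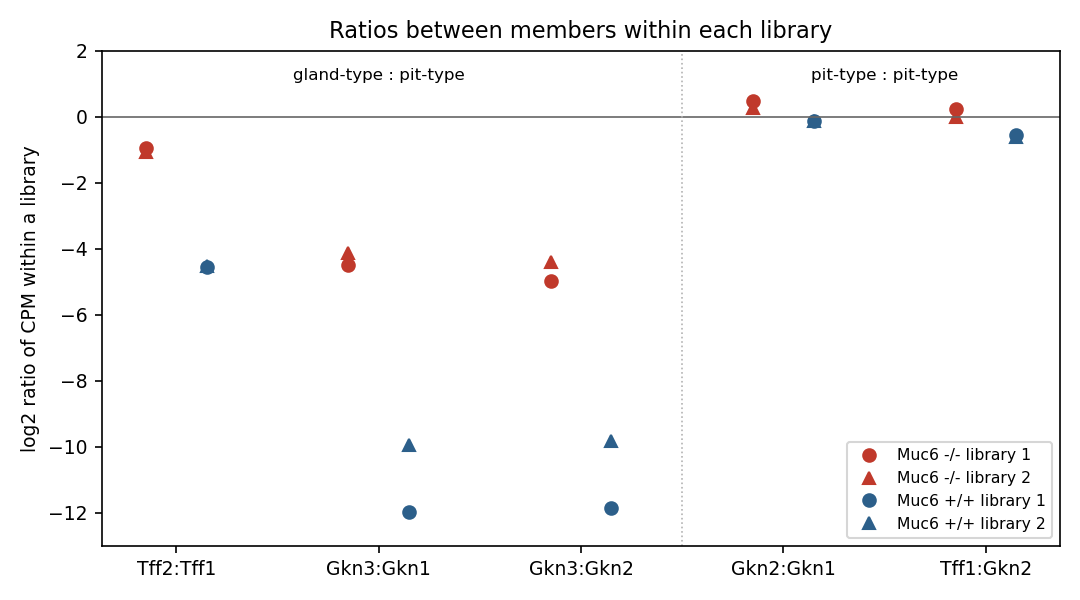
Log2 ratios of CPM between members within each library, Muc6 -/- in red on the left and Muc6 +/+ in blue on the right of each pair, with gland-type to pit-type ratios left of the dotted line and pit-type to pit-type ratios right of it. Tff2 to Tff1 lies near -1 in Muc6 -/- (-0.96 and -1.07) and at -4.54 and -4.52 in Muc6 +/+, with almost no spread within a genotype.

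Libraries differed in cell makeup, and in bulk tissue fewer cells of a type cannot be told apart from less RNA per cell. The 10 parietal markers were all lower in knockout, 10 without overlap (23.8% of all genes tested were). They summed to 1044 and 5604 CPM in knockout and 17112 and 16553 CPM in wild type. Chief cell markers summed to 2400 and 94581 CPM in knockout and 77113 and 180713 CPM in wild type, with Pgc, the pepsinogen C gene, at 2237 and 79810 CPM against 63572 and 145423 CPM, and Lipf at 0 in all libraries. Smooth muscle markers summed to 269 and 1297 CPM in knockout and 212 and 1387 CPM in wild type. Library 2 of each genotype thus had more chief cell and muscle transcripts, and Tff1, Tff2, Gkn1 and Gkn2 were all lower there than in library 1. Gkn3 went the other way, with the higher value in library 2 of both genotypes. Mitochondrial transcripts took 5.97% and 5.41% of the counts in knockout and 9.39% and 8.73% in wild type, without overlap. The part of these differences between libraries in the levels of the members was not tested.

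Most markers of metaplasia and of squamous forestomach that could be tested were also higher in knockout. Antral markers other than Sst were high mainly in knockout 1. The part of all these in the values of Tff2, Gkn3 and Tff3 was not tested. In knockout 1 the antral regulators Pdx1 and Nkx6-3 were at 59 and 122 CPM and the antral hormone gene Gast at 9.77 CPM. In knockout 2 these were at 2.52, 0.454 and 0 CPM, and in wild type Pdx1 was at 0.282 and 0.0521 CPM and Nkx6-3 at 0.363 and 0.312 CPM. Antral glands make Tff2 too. Pdx1 in knockout 2 was above both wild-type libraries. The antral marker Onecut2 was at 23.8 and 0.0413 CPM in knockout, against 0.242 and 0.416 CPM in wild type. Tff2 was at 7309 CPM and Gkn3 at 730 CPM in knockout 2, and the part of antral tissue in these values was not tested. Squamous forestomach markers summed to 156 and 13 CPM in knockout and 0.847 and 0.26 CPM in wild type, with Trp63, Sprr3 and Krtdap at 0 throughout. Of the 10 markers of spasmolytic polypeptide-expressing metaplasia (SPEM, a Tff2-making lineage), 9 were higher in knockout, 8 without overlap (26.3% of all genes tested were). The median log2 fold change of the 10 was 2.19, against -0.0017 over all genes. None of the 10 passed by edgeR and 7 did by DESeq2, all higher (4.06% of all genes were called higher). Aqp5, a water channel, was at 24.5 and 58.3 CPM in knockout and 2.78 and 1.93 CPM in wild type. Cftr, the apical chloride channel, was at 126 and 24.1 CPM against 0.322 and 0.26 CPM, Wfdc2 at 31.4 and 20.5 CPM against 5.08 and 2.97 CPM, and Gpx2 at 261 and 151 CPM against 73.3 and 54.2 CPM.

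**Figure D5:**
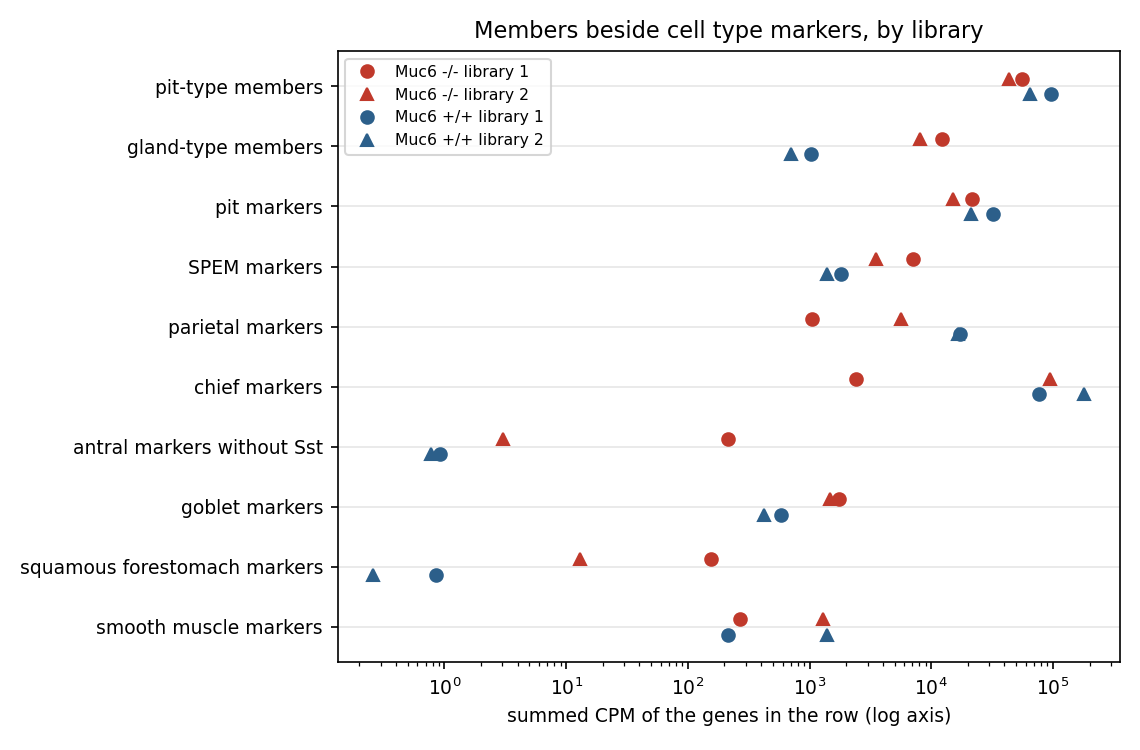
Summed CPM on a log axis of the pit-type and gland-type members and of marker lists, with the Muc6 -/- libraries (red) above the Muc6 +/+ libraries (blue) in each row. Gland-type members sum to 12313 and 8039 CPM in Muc6 -/- and 1031 and 705 CPM in Muc6 +/+, while antral markers without Sst are at 215 CPM in 1 Muc6 -/- library and 3.02 CPM in the other.

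Of the 10 pit cell markers other than the members, 8 were lower and 2 higher, with a median log2 fold change of -0.43. Only 4 were lower without overlap, and 23.8% of all genes tested were. None passed by edgeR and 2 did by DESeq2, both lower (3.36% of all genes were called lower). These were Sult1c2 (234 and 242 CPM in knockout, 552 and 435 CPM in wild type) and Psca (3034 and 3203 CPM against 5999 and 4680 CPM). Ctse, a gastric aspartic protease gene, was at 4315 and 2395 CPM in knockout and 3734 and 2598 CPM in wild type. Of the 5 mucous neck markers 4 had a log2 fold change above 0 (49.9% of all genes tested had), and Muc6 itself was the lower one. Only 2 were higher without overlap (26.3% of all genes tested were), Aqp5 and Wfdc2, and both are also among the SPEM markers above. The median log2 fold change of 1.15 was that of A4gnt, which overlapped between genotypes. Relative to wild type, the middle value of this list stood at -0.29 log2 units for library 1 of the knockout but 1.89 for library 2. The list held Cxcl17, at 53.7 and 80.5 CPM in knockout and 71.6 and 60.5 CPM in wild type (log2 fold change 0.02).

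Trefoil factors act with mucins and mucus proteins. Of 9 such genes tested, 6 were higher and 3 lower in knockout, and none passed by edgeR. By DESeq2 2 passed as higher (4.06% of all genes), Fcgbp and Dmbt1, and 1 as lower (3.36%). The lower one was Muc6, the gene by which the genotypes are defined. Muc5ac, which Tff1 accompanies in surface mucus, was at 5774 and 4869 CPM in knockout and 12422 and 7340 CPM in wild type (log2 fold change -0.89 ± 0.41). Muc6 carries the terminal sugar that Tff2 binds as a lectin, and A4gnt, the enzyme that adds this sugar, was at 56.7 and 283 CPM in knockout and 70.3 and 82.8 CPM in wild type. Tff2 was at 206 and 25.8 times A4gnt in knockout, against 14.5 and 8.19 times in wild type. Fcgbp, the mucus protein found linked to TFF3 in human, was at 273 and 48.2 CPM in knockout and 1.05 and 1.09 CPM in wild type, higher in knockout 1 as Tff3 was. Dmbt1, a scavenger receptor protein of mucus, was at 2394 and 336 CPM against 44.9 and 35.7 CPM. Muc2, a goblet cell mucin, was at 2.33 and 3.05 CPM in knockout and 0.847 and 0.416 CPM in wild type, Muc13 at 45.2 and 15.4 CPM against 8.18 and 0.468 CPM, Muc5b at 2.69 and 3.67 CPM against 3.71 and 0.885 CPM, and Muc1 at 800 and 579 CPM against 844 and 577 CPM. Among goblet cell markers, which include Fcgbp and Muc2, 7 of 7 tested had a log2 fold change above 0 (49.9% of all genes tested had). Of the 7, 4 were higher without overlap (26.3% of all genes tested). Clca1 was at 611 and 13.7 CPM in knockout and 114 and 41.4 CPM in wild type. Zg16 was at 9.05 and 0.206 CPM against 0.806 and 0.26 CPM, so both were higher in knockout 1 only. Spdef overlapped, with a log2 fold change of 0.09. Atoh1, which specifies secretory cells of the intestine, was at 0 in all libraries. Agr2, needed for mucin folding, was at 757 and 1279 CPM in knockout and 379 and 305 CPM in wild type. Enterocyte markers went both ways (4 higher and 2 lower of 6 tested), with Alpi, intestinal alkaline phosphatase, at 554 and 153 CPM against 5 and 0.208 CPM and Apoa4 at 12.9 and 33.1 CPM against 81.2 and 85.2 CPM. Cdx2, a master regulator of intestinal fate, had counts in knockout 1 alone (0.403 CPM).

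Proposed receptors of trefoil factors were low, except the protease-activated receptor gene F2rl1, and none passed by edgeR or DESeq2 (4 tested, 3 higher and 1 lower). F2rl1 was at 112 and 77.7 CPM in knockout and 87.7 and 61.6 CPM in wild type. Cxcr4, proposed for Tff2, was at 3.14 and 2.64 CPM in knockout and 0.806 and 2.97 CPM in wild type, and Ackr3 at 1.66 and 3.01 CPM against 0.726 and 2.76 CPM. Lingo3 was at 0.0448 and 0.536 CPM in knockout and 1.37 and 0.781 CPM in wild type. Lingo2, proposed for TFF3, and F2rl3 were too low to test, with at most 0.165 CPM in any library.

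Of 16 transcription factors of gastric and intestinal epithelium, 9 were higher and 7 lower (median log2 fold change 0.14). None passed by edgeR, and 3 did by DESeq2, all higher (4.06% of all genes were called higher). These were Klf5 and the antral genes Pdx1 and Nkx6-3. The counts of Nkx6-3 were 2716 and 11 in knockout, against 9 and 6 in wild type. Klf5 was at 130 and 101 CPM in knockout and 68.5 and 67.8 CPM in wild type, and Foxa1 at 157 and 158 CPM against 120 and 111 CPM. Gata4 and Gata6 were at 372 and 315 CPM and at 67 and 92.1 CPM in knockout, against 390 and 306 CPM and 111 and 96.4 CPM in wild type.

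Other genes with the same protein domains lay closer to 0 than Tff2 and Gkn3 where they could be tested. Of the 7 other BRICHOS genes 3 were tested, with log2 fold changes of 0.09 ± 0.24 for Itm2b, -0.49 ± 0.35 for Itm2c and -0.15 ± 1.49 for Itm2a. Of the 4 other trefoil domain genes Gaa, lysosomal alpha-glucosidase, was at 48.7 and 64.5 CPM in knockout and 37.6 and 47.2 CPM in wild type, Mgam had a log2 fold change of 1.41 ± 1.93, and Sis and Zp1 were too low to test.

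Genes that flank the clusters also lay closer to 0 than Tff2 and Gkn3. Within 500 kb of the trefoil factor cluster (31125306 to 31165277) 13 protein-coding genes were tested, 10 higher and 3 lower, with a median log2 fold change of 0.30 and a range from -1.66 to 2.43. Within 500 kb of the gastrokine cluster (87345650 to 87388935) 13 were tested, 9 higher and 4 lower, with a median of 0.09 and a range from -0.91 to 1.52. None of these passed by edgeR. The nearest tested neighbours were Abcg1, a sterol transporter gene 7318 bases from the trefoil factors (8.96 and 9.12 CPM in knockout, 3.75 and 7.39 CPM in wild type), and Tmprss3, a membrane serine protease gene at 13988 bases (26.2 and 5.49 CPM against 4.23 and 1.61 CPM). Antxr1, encoding an anthrax toxin receptor and 9829 bases from the gastrokines, was at 8.42 and 24.1 CPM in knockout and 3.1 and 19 CPM in wild type. Arhgap25, at 69610 bases, was at 0.269 and 0.536 CPM against 0.645 and 0.885 CPM.

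Genes with the most similar pattern were sought among 8602 protein-coding genes with a mean of at least 10 CPM over the 4 libraries, by the Euclidean distance between log2 CPM values centred on each gene's mean over the 4 libraries. With 4 libraries such likeness is a description only, and genes low in wild type entered through their knockout values. Tff1 was nearest to Fmn1 (distance 0.01), Fam3b (0.04) and Mboat2 (0.07), genes with almost its levels relative to their mean. Gkn1 was nearest to Slc10a5 (0.09), Rep15 (0.15) and Ldhd (0.16), and Gkn2 to Atp7a (0.09), Higd1a (0.11) and Igsf9 (0.12). Tff2 was nearest to Ly6g6c (0.55), Krt80 (0.64) and Wdfy1 (0.65), and Tff3 to Plat (0.42), Pglyrp1 (0.49) and Ripply3 (0.50). Gkn3 had no close match, the nearest being Edn3, the endothelin 3 gene (0.84, at 75.1 and 48.7 CPM in knockout and 1.17 and 1.98 CPM in wild type), Ces2a (1.23) and Chil4 (1.54).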

How the data were processed

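The deposited table holds estimated (expected) counts per gene for 4 libraries. Per the labels' protocols, libraries were made with a stranded kit that selects polyadenylated RNA, and per the submitters' processing notes the build was mm10. The aligner, counting program and annotation were not given in the sources used here. Of the nonzero values, 35.0% were not whole, so the expected counts deposited by the authors were rounded. Such estimates share reads among similar genes, which can shift values between paralogs. Of 34866 rows, 34652 matched GENCODE M21 by identifier without version.

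Knockout and wild type were compared with edgeR 4.0.16 in R 4.3.3 (quasi-likelihood, robust, no covariate, TMM, filterByExpr at 10 counts) on 14067 genes, adjusted over all of them at 0.05; DESeq2 1.42.0 and limma 3.58.1 were alternatives. SE is the log2 fold change divided by the square root of F. Log2 CPM used a prior count of 2. Libraries of a genotype were not duplicates (chi-square per degree of freedom 272 in knockout, 139 in wild type). The members and gene lists were chosen with earlier results of these data known. Named were the members, Muc6, the mucus partner and receptor genes, up to 4 genes with the smallest p in each other list or that bear on a limit, 3 nearest patterns per member, and the nearest neighbours; Ctse, Cxcl17, Gata4, Gata6, Pgc, Foxa1, Mgam, Lipf, Atoh1, Cdx2, the antral genes and the squamous genes at 0 were chosen after their values were seen.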

Additional observations from a re-analysis of the deposited data

How the results depend on the processing

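Tff2, Gkn3, Tff3, Gkn1 and Gkn2 kept their direction under every alternative run. Ranges over all settings were 3.06 to 3.81 for Tff2, 4.70 to 6.17 for Gkn3, 1.27 to 3.92 for Tff3, -1.52 to -0.94 for Gkn1 and -1.01 to -0.43 for Gkn2. Tff1 changed sign when the 20 most abundant genes were dropped from the library sizes (0.01) and ran from -0.40 to 0.30 when a library was left out. DESeq2 called Tff2 (3.47), Tff3 (3.18), Gkn1 (-1.28) and Gkn3 (5.22). The number of genes called was 0 in the edgeR fit and 9 with no filter on low counts, 1044 by DESeq2, and 0 to 851 when a library was left out, with 851 without knockout 2 and 9 without knockout 1. Such fits leave 1 library in a genotype, which is assumed to vary like the others, and the cause was not tested. Over the alternatives the adjusted p ran from 1.12e-18 to 0.738 for Tff2, from 1.95e-20 to 0.738 for Gkn3, from 0.0396 to 0.741 for Tff3 and from 0.00013 to 0.738 for Gkn1. Tff3 had too few counts for the filter of 50 counts. With the sample number as a replicate block, 0 genes were called and the log2 fold changes were 3.47 for Tff2 (adjusted p = 0.0955), 5.42 for Gkn3 (0.116), -1.23 for Gkn1 (0.147), -0.73 for Gkn2, 2.73 for Tff3 and -0.04 for Tff1. Samples share only a number, and the deviations of knockout 1 and wild type 1 from their group means correlated at 0.531 across genes. With 2 libraries per genotype, intervals on shares cover counting error only, and Tff3 rests on 14 and 15 counts in wild type.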
